A study of Mus musculus with 8 samples.

Results

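The genes described here are 10 regulators of the somatic cells of the gonad, Gata4, Wt1, Nr5a1, Lhx9, Emx2, Sox9, Amh, Foxl2, Fst and Nr2f2. They were chosen by name for what they do in supporting and interstitial cells, and all 10 were found among the 21352 genes of the deposited tables, each on an autosome. The measurement is H3K27me3, the repressive histone mark of Polycomb, taken by CUT&RUN in sorted mouse primordial germ cells (PGCs), from which eggs and sperm later derive. CUT&RUN cuts DNA where an antibody has bound in intact nuclei, and an IgG antibody gives the background of untargeted cutting.

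The H3K27me3 libraries came from pooled females of genotype Xist KO/+:Oct4-eGFP+/- at E12.5 and at E11.5. The IgG libraries came from pooled males of genotype Xist KO/Y:Oct4-eGFP+/- at E11.5, and, for E12.5 and E13.5, from pooled females of the Xist KO/+:Oct4-eGFP+/- genotype. All were B6 x Cast hybrids, so that every group carried the Xist knockout allele and the germ cell reporter, and no group was wild type for either. The labels list 8 samples, of which 5 had a table that was used, 1 library in each group, and 3 labelled as second replicates or parts of one were not analysed here.

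Before sex determination the genital ridge is built by transcription factors that both sexes share. Supporting cells then take a Sertoli fate under Sox9 or a pregranulosa fate under Foxl2, while interstitial cells form between them. PGCs migrate into this tissue and do not use these regulators as their somatic neighbours do. In many cell types Polycomb repressive complex 2 places H3K27me3 over developmental regulators of other lineages that are switched off, often as a domain across a whole gene.

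The libraries held 5020062 autosomal reads with allele information in H3K27me3 at E12.5 and 2356356 at E11.5, against 1357583, 1515532 and 5705401 in IgG at E11.5, E12.5 and E13.5. A level below is the reads of both alleles in a gene per 1000000 reads of chromosomes 1 to 19 in that library. A fold is the ratio of such levels with its exact 95% interval, which covers counting error only, since 1 library of each group was analysed and no p-value between conditions can be given. Reads on a gene climbed with its length (Spearman 0.752 in H3K27me3 at E12.5 and 0.899 in IgG at E13.5, across 20368 autosomal genes, which are not independent), so levels are compared between genes per kilobase only. The mark is no check of the labelled cell type, since a gene without it gives a ratio at or below IgG in any cell. Pou5f1, Dppa3, Nanos3, Dazl and Ddx4, which define PGCs, had 1.02-fold, 0.479-fold, 0.358-fold, 0.431-fold and 0.494-fold the IgG level at E12.5, on 27, 27, 45, 10 and 131 H3K27me3 reads. The interval lay below 1 for Dppa3, Nanos3 and Ddx4 and held 1 for Pou5f1 and Dazl. At E11.5 it held 1 for Dppa3 too (0.741-fold, 0.245 to 2.34). Dazl at both stages, and Pou5f1 and Dppa3 at E11.5, had too few reads for the read filter applied below. These genes belong to a germ cell list of 16 genes and were named after their values were seen. Stra8, also on that list, went the other way, at 2.96-fold (2.16 to 4.15) at E12.5 and 4.10-fold (2.96 to 5.81) at E11.5.

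Of the 10 genes, 9 carried more reads in H3K27me3 than in IgG at both stages, by at least 2.41-fold, and Amh did not. Over all 10 genes the median log2 ratio to the IgG library of the same stage was 2.18 at E12.5 and 2.64 at E11.5, with a pseudocount of 1 added to each level. Across all autosomal genes whose 2 libraries together held 20 reads or more, the medians were -0.54 and -0.49. On that scale 15.2% of 16526 autosomal genes at E12.5 and 17.2% of 15050 at E11.5 lay at 2-fold or more above IgG, 29.5% and 29.7% lay as far below it, and 9 of the 10 regulators lay at 2-fold or more above it at each stage. TMM scaling moved the split over all autosomal genes to 24.8% above and 5.72% below at E12.5, and to 23.8% and 9.33% at E11.5, and under it 9 regulators lay above as well. The filter of 20 reads was passed by 9 of the 10 genes, and 5 of those 9 had fewer than 20 IgG reads at either stage and passed through their H3K27me3 reads. The cells were pooled and sorted in bulk, so that a mark on fewer cells and less mark per cell cannot be told apart.

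**Figure D1:**
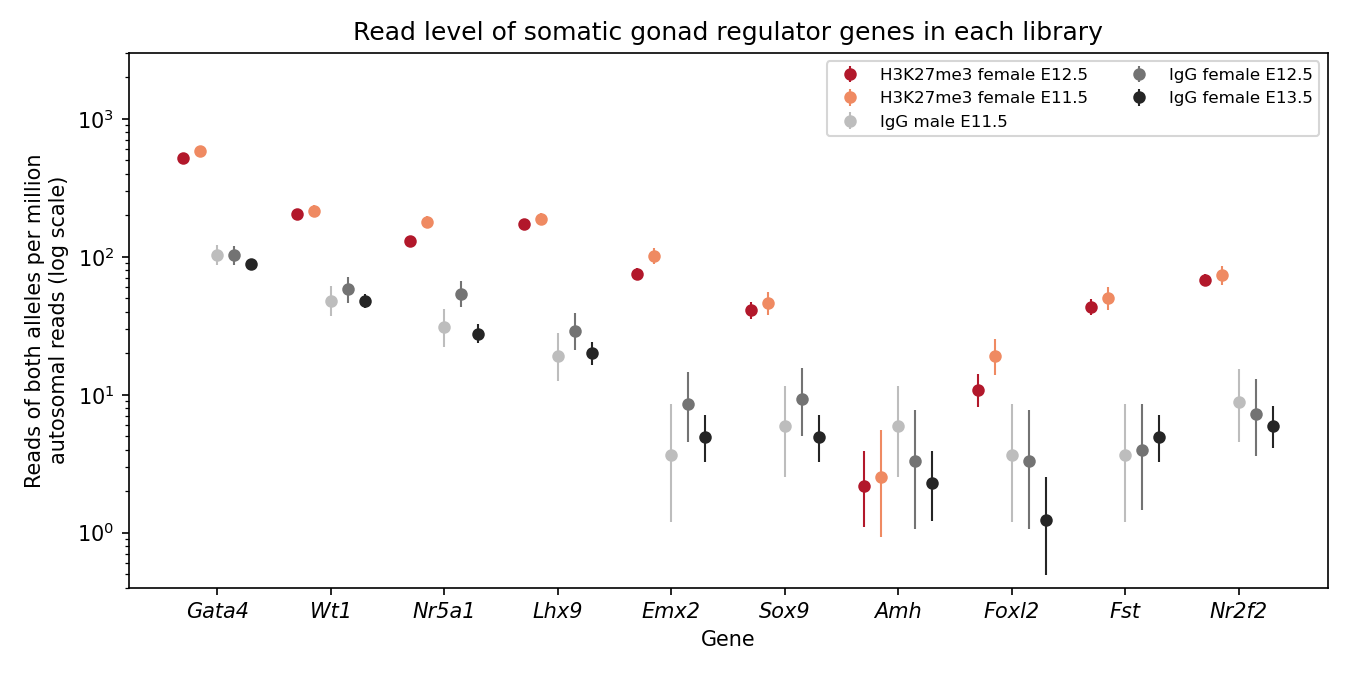
Reads of both alleles per 1000000 autosomal reads (vertical axis, log scale) of the 10 genes in each of the 5 libraries, with exact 95% Poisson intervals of the count. In 9 genes both H3K27me3 libraries (red and orange) lie above all 3 IgG libraries (greys), and in Amh they overlap.

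Gata4 encodes a zinc finger factor that starts the thickening of the genital ridge. It is the longest of the 10 genes, at 72.8 kb (GRCm38.p6 chromosome 14, 63198914 to 63271712). Its level was 520.1 and 589 in H3K27me3 at E12.5 and E11.5, against 103, 103 and 88.7 in IgG at E11.5, E12.5 and E13.5. Both H3K27me3 libraries were well above all IgG libraries, which lay close together. The fold over IgG of the same stage was 5.05 (4.30 to 5.98) at E12.5 and 5.71 (4.80 to 6.85) at E11.5.

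Wt1 encodes the Wilms tumour factor, which the urogenital ridge and later Sertoli cells need. It spans 47.1 kb on chromosome 2 (105126529 to 105173614). The level was 205 and 216 in H3K27me3 at E12.5 and E11.5, against 47.9, 58.1 and 48.0 in IgG at E11.5, E12.5 and E13.5. The groups did not overlap, and the fold was 3.53 (2.84 to 4.44) at E12.5 and 4.52 (3.49 to 5.95) at E11.5, the lowest of the 9 marked genes at E11.5.

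Nr5a1 encodes steroidogenic factor 1, which drives the somatic gonad and adrenal cortex and their steroid enzymes. It lies on chromosome 2 (38692656 to 38714542). Its level was 130.3 and 179 in H3K27me3 at E12.5 and E11.5, against 30.9, 54.1 and 27.7 in IgG at E11.5, E12.5 and E13.5. It had the lowest fold of the 9 genes at E12.5, 2.41 (1.91 to 3.07), and 5.79 (4.21 to 8.15) at E11.5. The IgG library of E12.5 was the highest of the 3 on this gene. With IgG of E13.5 as the control the E12.5 fold was 4.70 (3.95 to 5.63), above that of Wt1 (4.27).

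Lhx9, a LIM homeobox gene of the early gonad that acts upstream of Nr5a1, had a level of 172 and 188 in H3K27me3 at E12.5 and E11.5, against 19.2, 29.0 and 19.98 in IgG at E11.5, E12.5 and E13.5. It lies on chromosome 1 (138825186 to 138848839). The fold was 5.92 (4.37 to 8.21) at E12.5 and 9.84 (6.62 to 15.2) at E11.5. The groups lay far apart.

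Emx2, a homeobox gene without which the kidneys and gonads do not form, lies on chromosome 19 (59458690 to 59465357). Its level was 75.5 and 102 in H3K27me3 at E12.5 and E11.5, against 3.68, 8.58 and 4.91 in IgG at E11.5, E12.5 and E13.5. At E11.5 its fold of 27.7 (11.7 to 85.9) was the highest of the 10 genes and above that of 99.98% of the autosomal genes tested. At E12.5 it was 8.80 (5.08 to 16.7). The IgG libraries of these stages held 13 reads at E12.5 and 5 at E11.5. Against IgG of E13.5, with 28 reads, the folds were 15.4 at E12.5 and 20.8 at E11.5.

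Of the testis supporting genes, Sox9 lay above IgG and Amh did not. Sox9, the switch to Sertoli fate, lies on chromosome 11 (112782210 to 112787757). Its level was 40.8 and 46.3 in H3K27me3 at E12.5 and E11.5, against 5.89, 9.24 and 4.91 in IgG at E11.5, E12.5 and E13.5. The fold was 4.42 (2.58 to 8.23) at E12.5 and 7.85 (3.85 to 18.6) at E11.5, on 14 and 8 IgG reads. With IgG of E13.5 as the control the E12.5 fold was 8.32 (5.59 to 12.8).

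Amh encodes the Sertoli hormone that removes the female ducts, and is a target of Sox9 and Nr5a1. It is the shortest of the 10 genes, at 2.41 kb (chromosome 10, 80805240 to 80807679). It held 11 and 6 reads in H3K27me3 at E12.5 and E11.5, against 8, 5 and 13 in IgG at E11.5, E12.5 and E13.5. As levels these are 2.19 and 2.55, against 5.89, 3.30 and 2.28, and both H3K27me3 values lie among or below those of IgG. The fold was 0.664 (0.213 to 2.44) at E12.5 and 0.432 (0.124 to 1.42) at E11.5. Against IgG of E13.5 it was 0.962 (0.390 to 2.33) at E12.5 and 1.12 (0.348 to 3.15) at E11.5, so that the direction at E11.5 turned with the control. At this depth no enrichment of Amh was detectable, and a 2-fold excess lies within the intervals against IgG of E13.5.

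On the ovarian side, Foxl2 encodes the forkhead factor of pregranulosa and granulosa cells and lies on chromosome 9 (98955607 to 98958126). Its level was 10.8 and 19.1 in H3K27me3 at E12.5 and E11.5, against 3.68, 3.30 and 1.23 in IgG at E11.5, E12.5 and E13.5. The libraries of both antibodies did not overlap. The fold was 3.26 (1.31 to 10.4) at E12.5, on 54 H3K27me3 and 5 IgG reads, and 5.19 (2.07 to 16.7) at E11.5, on 45 and 5. With IgG of E13.5 as the control, on 7 reads, it was 8.77 (3.98 to 22.8) at E12.5 and 15.6 (6.97 to 40.9) at E11.5.

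Fst encodes follistatin, a secreted inhibitor of activin that is a target of Foxl2 in the ovary. It lies on chromosome 13 (114452262 to 114458989). The level was 43.4 and 50.1 in H3K27me3 at E12.5 and E11.5, against 3.68, 3.96 and 4.91 in IgG at E11.5, E12.5 and E13.5. At E12.5 this gave the highest fold of the 10 genes, 10.97 (4.96 to 30.2), and at E11.5 13.6 (5.67 to 42.6). The IgG libraries of these stages held only 6 and 5 reads.

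Nr2f2, also called COUP-TFII, is the orphan nuclear receptor of interstitial progenitors and of the mesenchyme that supports the ducts. It lies on chromosome 7 (70351946 to 70366746). Its level was 67.9 and 73.4 in H3K27me3 at E12.5 and E11.5, against 8.84, 7.26 and 5.96 in IgG at E11.5, E12.5 and E13.5. The fold was 9.36 (5.16 to 18.9) at E12.5 and 8.31 (4.63 to 16.4) at E11.5, with overlapping intervals on 11 and 12 IgG reads. Nr2f2 was the only one of the 9 genes whose fold was not lower at E12.5. The RefSeq gene B130024G19Rik overlaps it and Gm41074 overlaps Fst. Neither has a row in the tables, so reads from them cannot be told apart from those of these 2 genes.

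**Figure D2:**
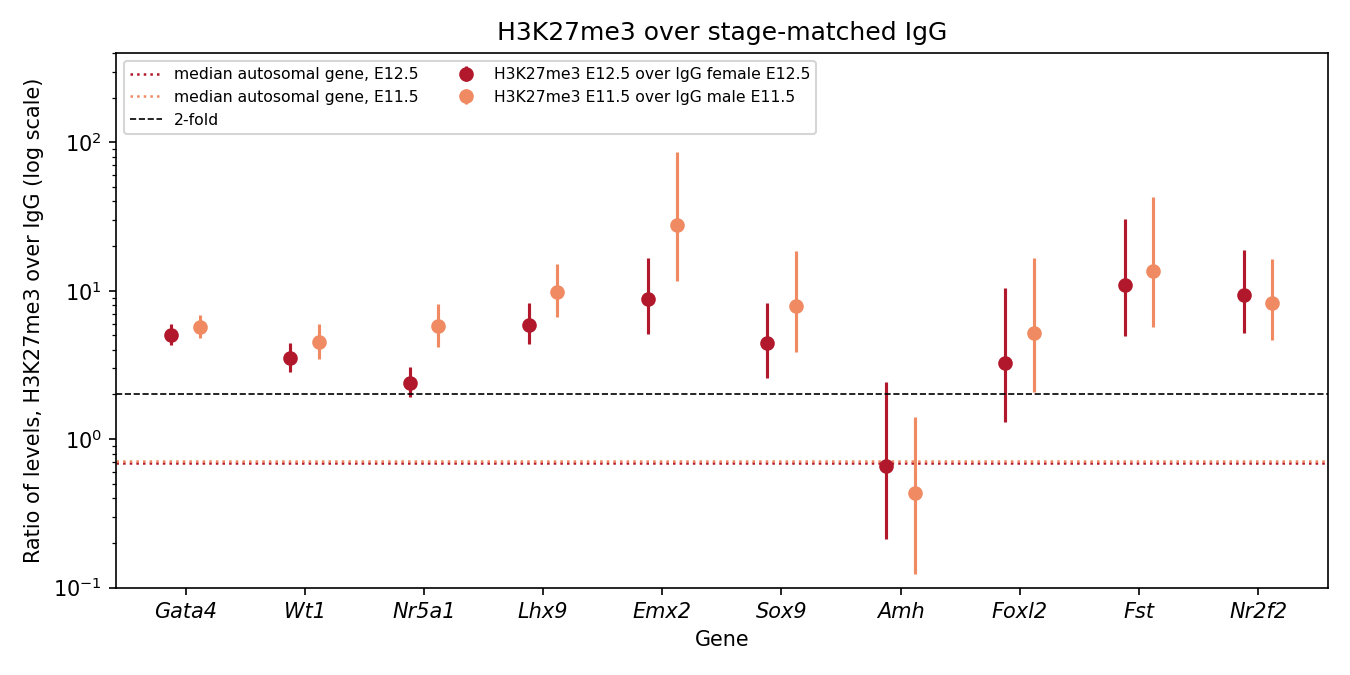
Ratio of levels, H3K27me3 over IgG of the same stage (vertical axis, log scale), for the 10 genes at E12.5 (red) and E11.5 (orange), with exact 95% intervals; dotted lines mark the median autosomal gene and the dashed line 2-fold. For Amh alone the intervals hold 1, and Emx2 at E11.5 stands highest at 27.7.

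The separation of the antibodies did not rest on the choice of IgG library. In 9 of the 10 genes both H3K27me3 levels lay above all 3 IgG levels, as they did for 23.9% of the 18040 autosomal genes with at least 20 reads in all. The interval of the fold lay above 2 for 7 of the 10 genes at E12.5, all but Amh, Foxl2 and Nr5a1, and for 9 at E11.5. Against IgG of E13.5, the deepest control, it lay above 2 for 9 genes at each stage. The share of all autosomal genes with an interval above 2 was not computed for any of these controls. By the log2 ratio with the pseudocount, 9 of the 10 regulators were at 2-fold or more over IgG of E13.5 at each stage. By the same measure 15.9% of autosomal genes at E12.5 and 16.8% at E11.5 were. Among all autosomal genes tested, the 9 genes stood between percentiles 88.8 and 99.8 at E12.5 and between 93.5 and 99.98 at E11.5. Amh stood at percentiles 53.3 and 31.8.

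Per kilobase of gene, the highest H3K27me3 level was that of Emx2, with a level of 10.8 at E12.5 and 14.6 at E11.5, and its interval did not meet that of any other of the 10 genes. Sox9 (7.38 and 8.35), Lhx9 (7.35 and 8.06), Gata4 (7.15 and 8.09) and Fst (6.52 and 7.52) followed with intervals that overlapped one another. Nr5a1 belonged with these at E11.5 (8.18). In the E12.5 library (5.95, interval 5.50 to 6.43) its interval met those of Fst and Sox9 but not those of Lhx9 and Gata4. Nr2f2 (4.59 and 4.96), Wt1 (4.36 and 4.60) and Foxl2 (3.30 and 5.87) made the lower end of the 9. Averaged over gene length, Gata4 (72.8 kb) thus had a density like that of Sox9 (5.54 kb). Where in a gene the reads fell, and over which window they were counted, is not given. Amh was lowest, at 0.911 and 1.06, and its interval met no other. How many strain variants each gene offers per kilobase is not given, and this part of the order was not tested.

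RefSeq promoter windows of GRCm38.p6 were at hand for 4 of the 10 genes, which are shown because all 4 genes lay above IgG while their windows differ in CG content. Each line gives the 250 bases before the annotated start, 5′ to 3′ on the strand of the gene, with every CG dinucleotide in capitals.
Emx2 (plus strand): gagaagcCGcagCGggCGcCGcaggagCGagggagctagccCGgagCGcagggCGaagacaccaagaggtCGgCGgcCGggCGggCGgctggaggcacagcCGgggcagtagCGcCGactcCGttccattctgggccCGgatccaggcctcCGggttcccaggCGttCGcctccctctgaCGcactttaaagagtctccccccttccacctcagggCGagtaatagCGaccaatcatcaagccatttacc
Foxl2 (plus strand): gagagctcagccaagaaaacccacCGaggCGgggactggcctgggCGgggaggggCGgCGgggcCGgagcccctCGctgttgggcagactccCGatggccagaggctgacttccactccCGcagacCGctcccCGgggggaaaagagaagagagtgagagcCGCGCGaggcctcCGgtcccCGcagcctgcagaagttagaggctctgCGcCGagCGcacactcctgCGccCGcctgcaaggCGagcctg
Lhx9 (minus strand): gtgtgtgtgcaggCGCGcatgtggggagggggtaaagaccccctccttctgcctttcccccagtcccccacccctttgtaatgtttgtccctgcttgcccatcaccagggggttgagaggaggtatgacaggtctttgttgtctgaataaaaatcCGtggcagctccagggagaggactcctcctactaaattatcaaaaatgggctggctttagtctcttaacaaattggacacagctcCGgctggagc
Nr2f2 (minus strand): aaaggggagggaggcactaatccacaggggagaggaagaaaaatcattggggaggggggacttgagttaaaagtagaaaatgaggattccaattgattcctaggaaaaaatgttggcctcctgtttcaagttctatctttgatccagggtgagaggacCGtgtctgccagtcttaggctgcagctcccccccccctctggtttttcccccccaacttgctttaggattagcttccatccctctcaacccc

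These windows lie at chr19:59458440-59458689, chr9:98955357-98955606, chr1:138842445-138842694 and chr7:70366747-70366996, in the order shown. Emx2 held 24 CG dinucleotides and Foxl2 22, which 11.98% and 14.8% of 32841 RefSeq windows of the same length reach. Lhx9 held 4, reached by 62.2%, at an annotated start that lies inside the gene, and Nr2f2 held 1, reached by 92.1%. Other starts of these genes, and the promoters of Gata4, Wt1, Fst, Sox9, Nr5a1 and Amh, were not analysed here. The folds over IgG at E12.5 were 8.80 for Emx2 and 3.26 for Foxl2, and 5.92 for Lhx9 and 9.36 for Nr2f2. A relation between the fold and the CG count of the window was not tested on these 4 genes.

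Between the stages, the H3K27me3 level of 4 of the 10 genes was lower at E12.5 than at E11.5 beyond counting error. The share of all autosomal genes with such a difference was not computed, so nothing particular to the 10 genes can be read from this number. For the other 6, Amh with its 11 and 6 reads among them, the ratio was below 1 with an interval that holds 1. None of the 10 reached 2-fold, as 0.787% of autosomal genes did in this direction and 0.756% in the other. The median log2 ratio, E12.5 over E11.5, was -0.18 over the 10 genes and 0.01 over 16526 autosomal genes, of which 48.5% were below 0. For 4 genes the interval of the fold lay below 1. These were Foxl2, at 0.563-fold (0.372 to 0.856), Nr5a1 at 0.727-fold (0.643 to 0.824), Emx2 at 0.741-fold (0.629 to 0.875) and Gata4 at 0.883-fold (0.827 to 0.943). The other 6 ran from 0.861-fold for Amh to 0.948-fold for Wt1. With second-allele reads alone, Nr2f2 was not below 0, at 0.01 on the log2 scale.

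Other marked genes also lay below 0 more often than above. Among the 1781 autosomal genes at 2-fold or more over IgG at both stages, which are 11.9% of those tested, the median stage ratio was -0.16 (quartiles -0.37 and 0.03) and 70.7% were below 0. They were picked by a high ratio in the same H3K27me3 libraries that the stage ratio compares. The part of that choice in this median was not tested. These genes took 21.4% of autosomal reads in the E12.5 library and 23.6% in the E11.5 library, and the part of this difference between the libraries in the ratios of the 10 genes was not tested. The IgG libraries also differed among themselves. Nr5a1 was 1.75-fold (1.19 to 2.60) higher in IgG of E12.5 than of E11.5, and 0.512-fold (0.390 to 0.677) as high in IgG of E13.5 as of E12.5. Of the regulators with enough reads, 6 for E12.5 against E11.5 and 8 for E13.5 against E12.5, 0 differed 2-fold between these IgG libraries. Of all autosomal genes 2.42% were as much higher and 1.43% lower in IgG of E12.5 than of E11.5, and 3.72% higher and 5.62% lower in IgG of E13.5 than of E12.5. Among the regulators with too few reads, Emx2 was 2.33-fold (0.779 to 8.34) as high in IgG of E12.5 as of E11.5. Foxl2 was 0.372-fold (0.102 to 1.49) as high in IgG of E13.5 as of E12.5. With 1 library a stage, a difference between stages and a difference between libraries cannot be told apart. The IgG library of E11.5 came from males and the other 4 libraries from females, so sex cannot be told apart from stage between the IgG libraries of E12.5 and E11.5, nor from the antibody at E11.5.

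**Figure D3:**
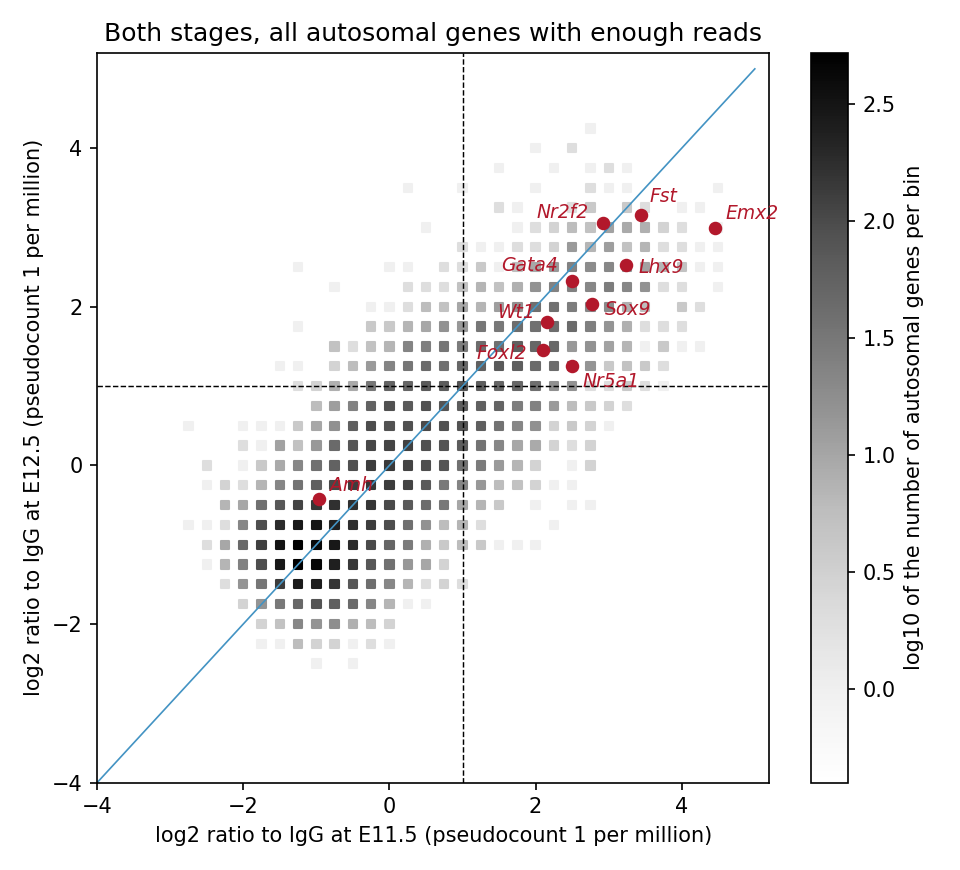
log2 ratio of H3K27me3 over IgG, with E11.5 on the horizontal and E12.5 on the vertical axis. The autosomal genes that had enough reads at both stages are binned in grey and the 10 regulators are red; dashed lines mark 2-fold and the blue line equal ratios. The 9 marked genes lie in the upper right, all but Nr2f2 below the line of equal ratios, and Amh, which had too few reads for the grey bins, lies at -0.96 and -0.43.

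No single gene of the 10 was called for an uneven division between the alleles. The second-allele share, the percent of allelic reads on the second of the 2 parental genomes, was 49.2% on 2611 reads of Gata4 at E12.5 (exact interval 47.2 to 51.1) and 48.0% on 1388 reads at E11.5 (45.3 to 50.6). Wt1 had 52.9% and 51.8%, Nr5a1 50.8% and 49.1%, Lhx9 51.6% and 48.4%, and Emx2 49.6% and 45.0%. Sox9 had 51.2% and 54.1%, Foxl2 57.4% and 51.1%, Fst 53.7% and 47.5%, and Nr2f2 51.0% and 47.4%. Foxl2, with 54 reads at E12.5, lay farthest from an equal division. Summed over the 10 genes, the share was 50.7% (49.4 to 51.9) of 6366 reads at E12.5, with the autosomal share of 50.9% inside the interval. At E11.5 it was 48.7% (47.0 to 50.4) of 3455 reads, and the autosomal share of 51.6% lay above the interval. Gata4 alone gave 1388 of those reads. A library without the mark departed the other way. In IgG of E13.5 the summed share was 54.4% (51.5 to 57.2) of 1190 reads, and the autosomal share of 51.3% lay below the interval. In IgG of E11.5 and E12.5 the intervals (45.0 to 56.3 and 44.2 to 53.9) held the autosomal share.

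An exact two-sided binomial test against the autosomal share of the library (50.9% at E12.5 and 51.6% at E11.5), with Benjamini-Hochberg adjustment over all autosomal genes, called 0 of the 10 genes at E12.5 and 0 of the 9 with at least 10 reads at E11.5. It called 17.5% and 11.7% of all autosomal genes tested. Unadjusted, none of the 10 had p below 0.05 at E12.5 and 2 did at E11.5, Gata4 (exact binomial p = 0.00782, adjusted 0.0628) and Emx2 (exact binomial p = 0.0451, adjusted 0.226). Fisher's exact test between the stages called 0 of 9 genes and 0.53% of all genes, and 0 of these 9 had an unadjusted p below 0.05. Against IgG of the same stage it called 0 of 7 genes at E12.5 and 0 of 5 at E11.5, with 2.35% and 2.17% over all genes, and 1 of the 5, Nr5a1, had an unadjusted p below 0.05 (Fisher's exact p = 0.0351). Against IgG of E13.5 it called 0 of 9 genes at E12.5 and 6.12% of all genes, and 1 of the 9, Fst, had an unadjusted p below 0.05 (Fisher's exact p = 0.0435, adjusted 0.300). Within the IgG libraries of E11.5, E12.5 and E13.5 the binomial test called 0 regulators, and 3.66%, 3.46% and 7.87% of all genes. These tests compare the reads of these libraries, not the conditions. The strain behind each allele is not named in the labels.

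Each allele on its own showed the excess over IgG. At E12.5 the fold of Gata4 was 5.12 (4.07 to 6.52) from first-allele and 4.98 (3.96 to 6.35) from second-allele reads, and at E11.5 it was 5.96 and 5.47. For Wt1 the values were 3.11 and 4.02 at E12.5 and 4.51 and 4.53 at E11.5. The interval lay above 1 for 8 of the 10 genes from the first allele and 9 from the second at E12.5, and for 9 from either allele at E11.5. Foxl2 was the gene that fell short, with 23 first-allele reads in H3K27me3 and 4 in IgG at E12.5 (1.73-fold, 0.591 to 6.88). The share of all autosomal genes with an interval above 1 was not computed. By the log2 ratio with the pseudocount, 8 regulators from the first allele and 9 from the second were at 2-fold or more at E12.5. Of all autosomal genes 16.5% and 16.2% were. At E11.5 this held for 9 regulators from either allele, and for 19.3% and 19.2% of all autosomal genes.

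**Figure D4:**
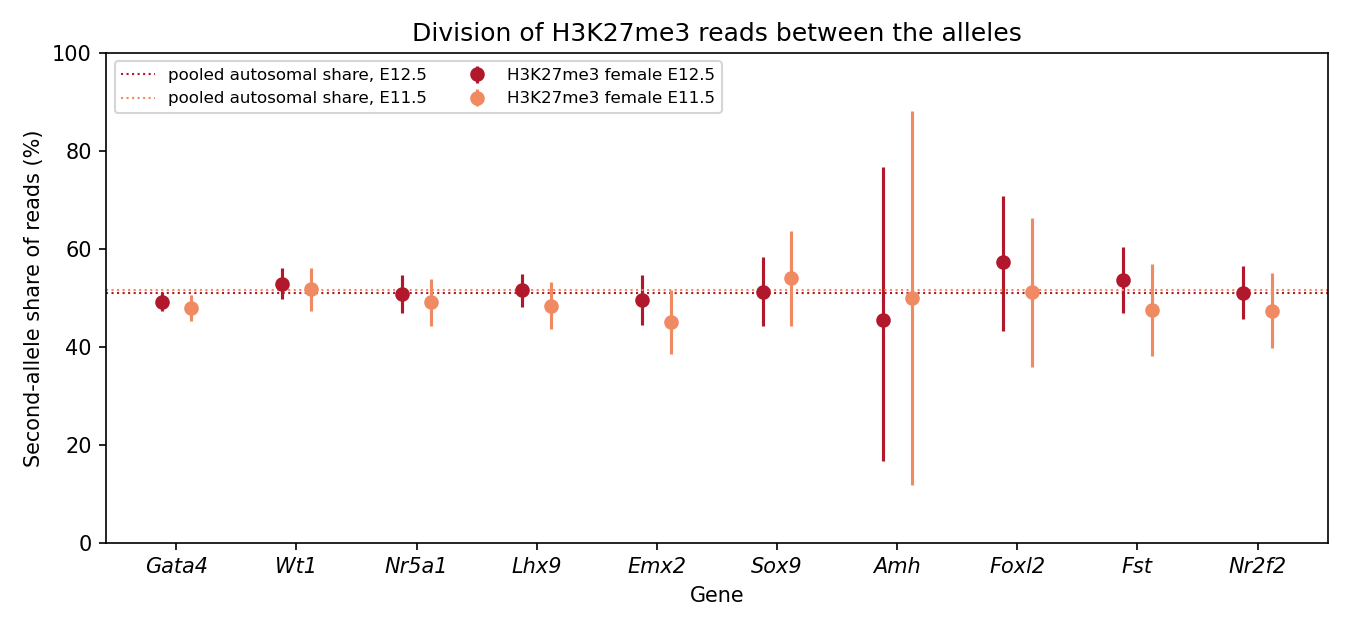
Second-allele share of H3K27me3 reads (vertical axis, %) of the 10 genes at E12.5 (red) and E11.5 (orange), with exact 95% intervals; dotted lines mark the pooled autosomal share of each library. The shares lie between 45.0% and 57.4%, and the widest intervals belong to Amh, with 11 and 6 reads.

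The nearest genes to the 10 regulators were described in the same way. Of the 20 nearest genes of the tables, 1 on each side of each regulator, 16 had enough reads at both stages, and their median log2 ratio to IgG was -0.80 at E12.5 and -1.15 at E11.5. Only 1 of the 16 was at 2-fold or more at both stages, as were 11.9% of all autosomal genes tested, and so small a number cannot be told from that share. It was Kcnj2, a potassium channel gene 1705 kb from Sox9 (log2 2.54 and 2.26). Nr6a1, 8.83 kb from Nr5a1, was at -0.88 and -1.32, and Faim, 28.2 kb from Foxl2, at -0.87 and -1.37. Neil2, 4.76 kb from Gata4, was at 0.90 and 1.52. In 13 of the 16 the ratio was below that of the regulator at both stages. The exceptions were Kcnj2 at E12.5 and both genes beside Amh, Sf3a2 (-1.26 and -0.63) and Jsrp1 (0.62 and 1.37), which lie 0.32 and 0.82 kb from it. The 9 marked regulators stood at percentile 88.8 or higher at E12.5 and 93.5 or higher at E11.5. Most autosomal genes lie below them, so nothing particular to the neighbours can be read from the 13.

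Other genes of the somatic gonad lay on both sides of IgG. Of 67 genes in 5 lists, 59 had enough reads at both stages, and 25 of these were at 2-fold or more over IgG at both, against 11.9% of all autosomal genes tested. At E12.5 alone 15.2% of all autosomal genes reached 2-fold, and at E11.5 alone 17.2%, the shares to set beside each list below. The interstitial list had 8 of 13 genes at 2-fold or more at E12.5 and 9 of 12 at E11.5. It was led by Nr2f1, the paralogue of Nr2f2 (log2 3.34 and 2.49), Tcf21, a factor of stromal progenitors (3.05 and 3.40), and Pdgfra, a receptor of Leydig progenitors (2.14 and 2.14). Its lowest were Ptch1, the Hedgehog receptor (-0.98 and -0.51), Lhcgr, the luteinising hormone receptor (0.05 and 0.13), and Acta2, smooth muscle actin (0.55 and 0.63).

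The pregranulosa list had 8 of 14 at each stage, led by Lgr5, a receptor for R-spondins (2.86 and 2.62), Irx5 (1.95 and 3.11) and Bmp2 (1.74 and 1.87). Foxo1 (-1.50 and -1.08), Lef1 (-1.29 and -0.76) and Nr4a1 (-1.12 and -0.86) were lowest. The bipotential list had 5 of 12 at E12.5 and 6 of 12 at E11.5, led by Osr1, a factor of the intermediate mesoderm (2.96 and 3.22), Lhx2 (2.30 and 3.27) and Gata6, the paralogue of Gata4 (1.99 and 2.58). Map3k4, a kinase needed for Sry expression (-1.74 and -1.27), and Numb (-1.55 and -1.42) were among the lowest.

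Sertoli lineage genes and the hormone and receptor genes had the fewest. In the Sertoli list 2 of 12 at E12.5 and 3 of 11 at E11.5 reached 2-fold, near the 15.2% and 17.2% of all autosomal genes. Gdnf, the niche factor of spermatogonia (1.55 and 1.61), Dhh, the Hedgehog ligand of Sertoli cells (1.41 and 2.42), and Sox8, the relative of Sox9 (0.67 and 1.51), led it, and Etv5 (-1.36 and -1.36), Dmrt1 (-1.05 and -0.80) and Ptgds (-0.50 and -0.69) were lowest. In the hormone and receptor list the numbers were 2 and 3 of 10, too few to set apart from the same shares. It was led by Hsd17b1, a steroid enzyme of granulosa cells (2.50 and 3.69), Inhba, an activin subunit (1.33 and 2.31), and Amhr2, the receptor of Amh (0.67 and 0.72). The lowest were the receptor genes Acvr2b (-1.09 and -1.19), Acvr2a (-0.78 and -1.45) and Bmpr1a (-0.75 and -1.10).

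**Figure D5:**
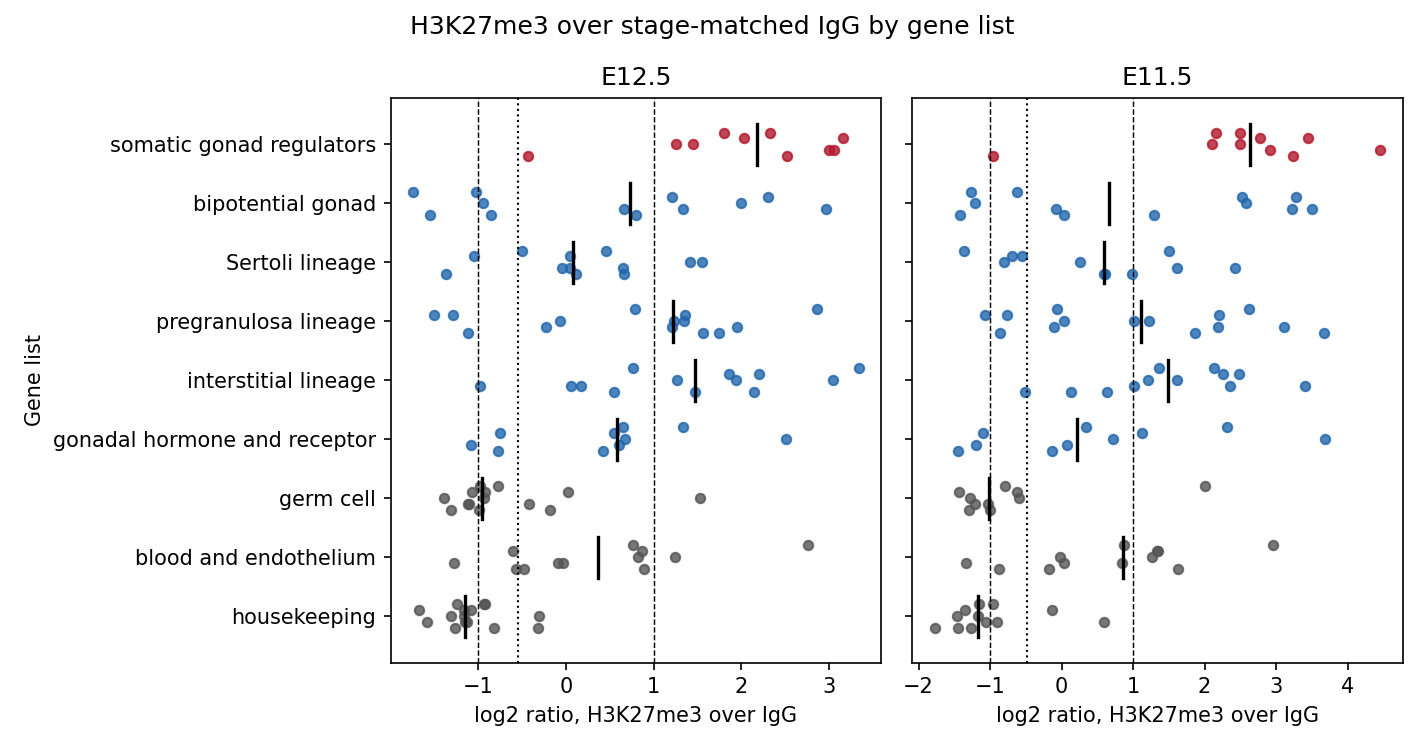
log2 ratio of H3K27me3 over IgG of the same stage for the genes of 9 lists at E12.5 (left) and E11.5 (right); points are genes with enough reads, all 10 genes in the top row, the black bars are list medians, dashed lines mark 2-fold and the dotted line the median autosomal gene. The 10 regulators have a median of 2.18 and 2.64, and the medians of the germ cell and housekeeping lists lie near or below -0.96.

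For comparison, the germ cell list had a median log2 ratio of -0.96 over 14 genes at E12.5 and -1.01 over 10 at E11.5, and housekeeping genes, active in every cell, had -1.16 over 15 and -1.17 over 12. No housekeeping gene with enough reads reached 2-fold over IgG at either stage. Blood and endothelial genes, which mark other cells of the gonad that a sort could carry over, had medians of 0.36 and 0.86 over 12 genes, and 2 and 5 of these reached 2-fold, beside 15.2% and 17.2% of all autosomal genes. The part of such cells in the levels of the 10 regulators was not tested.

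The autosomal genes outside the lists whose pair of ratios was nearest to the medians of the 10 regulators (2.18 and 2.64) were sought among 7897 genes with at least 50 reads in each H3K27me3 library. In order of distance they were Foxb2, a forkhead gene (2.18 and 2.60), Wnt8b, a Wnt ligand gene (2.16 and 2.57), Zfp579 (2.17 and 2.71), Urad (2.16 and 2.55) and Dusp15, a phosphatase gene (2.27 and 2.69). The likeness is a distance of at most 0.0995 on the log2 scale over 4 libraries and says nothing beyond these ratios.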

How the data were processed

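Per the labels, H3K27me3 and IgG CUT&RUN libraries were made from sorted PGCs. Each deposited table gives, per gene, raw whole-number counts of reads on 2 alleles, a gene length and the fraction of those reads on the second allele. The deposited fraction equals the second count over the sum of both. Per the submitters' processing notes the build was mm10 and the tools included Bowtie2 2.4.2, GATK and featureCounts. The sources used here do not give their roles, duplicate removal or allele assignment, so counts may hold PCR duplicates and intervals cover counting error only. Gene positions were matched by symbol to RefSeq GRCm38.p6 for all 10 genes.

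The 10 genes, all lists and the tests were chosen with earlier results of these data known. Levels were scaled to the reads of 20368 autosomal genes. Log2 ratios used a pseudocount of 1 added to each level, which understates those of genes with few reads. Genes needed 20 reads over both libraries compared, and 2-fold was the threshold. Folds without a pseudocount carry exact conditional binomial intervals, shares exact Clopper-Pearson intervals. Allele tests needed 10 reads and an adjusted p of 0.05. All 10 genes were named, with the 3 highest and 3 lowest of each other list by the lower or higher ratio of both stages, the nearest gene on each side and the 5 genes outside the lists nearest by ratio. The PGC-defining genes were named after their values were seen, and of the comparison lists only some of the genes under the rule are printed. A gene of the bipotential list that the rule names is not reported here. Calculations used Python 3.11.15, scipy 1.17.1 and, for TMM factors as an alternative scaling, edgeR 4.0.16. They were tested on simulated data.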

Additional observations from a re-analysis of the deposited data

How the results depend on the processing

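No paired analysis was possible because each group had 1 library with a table, and for the same reason no replicate could be left out. Over the pseudocounts, filters, scalings, alleles, thresholds and controls tried, the number of the 10 regulators past the threshold over IgG ran from 7 to 9 at E12.5 and from 8 to 9 at E11.5. It was 7 with a 3-fold threshold at E12.5 and 8 from first-allele reads at E12.5. A filter on the reads of the 3 IgG libraries, added after the data were seen, left 8 of 9 at both stages, since Foxl2 has 17 IgG reads in all. Under that filter 13.8% of all autosomal genes at E12.5 and 15.0% at E11.5 were at 2-fold or more. Between the stages 1 gene, Foxl2, passed a 1.5-fold threshold, lower at E12.5, as 5.32% of all autosomal genes did, and 0 passed 2-fold.

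No ratio past 2-fold changed its sign, and that of Amh at E11.5 did. Scaling to the median gene moved the median autosomal log2 ratio to 0.00 at both stages, from the reported -0.54 at E12.5 and -0.49 at E11.5, and the median of the 10 regulators to 2.76 and 3.15. Relative to the median autosomal gene the reported median of the 10 regulators was 2.72 and 3.13, and over the settings it ran from 2.48 to 3.09 and from 2.85 to 3.50. The control moved some genes by about 2-fold. With IgG of E13.5, log2 ratios were 2.40 and 3.17 for Foxl2 at E12.5 and E11.5, beside 1.45 and 2.10 as reported, 2.19 for Nr5a1 at E12.5, beside 1.25, and 0.11 for Amh at E11.5, beside -0.96. With IgG of E12.5 they were 3.42 for Emx2 at E11.5, beside 4.46, and 1.71 for Nr5a1, beside 2.50. Over the alleles Nr5a1 ran from 1.08 to 1.45 at E12.5 and from 2.04 to 3.11 at E11.5. Folds of Emx2, Fst, Foxl2, Nr2f2 and Sox9 over IgG of the same stage rest on 5 to 14 IgG reads. No allele test called any of the 10 genes under the alternatives tried, and the smallest adjusted p was 0.0545, for Gata4 at E11.5 with a minimum of 20 reads (binomial test over all genes with Benjamini-Hochberg adjustment; 0.0628 as reported).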

Other observations

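Stra8, the retinoic acid target that opens meiosis, was the only gene of the germ cell list at 2-fold or more over IgG. It had 421 and 299 reads in H3K27me3 at E12.5 and E11.5, against 42, 43 and 133 in IgG at E11.5, E12.5 and E13.5, which gave 2.96-fold (2.16 to 4.15) at E12.5 and 4.10-fold (2.96 to 5.81) at E11.5. Those folds lie within the range of the 9 marked somatic regulators at E12.5 and below it at E11.5. In the blood and endothelial list Tal1, a factor of early blood progenitors, stood highest, with a log2 ratio of 2.76 and 2.96, and Pecam1, an endothelial adhesion gene, lowest, with -1.27 and -1.34.

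In IgG of E13.5, 2 of the 10 genes had an unadjusted p below 0.05 for their allele share and none passed the adjustment. The second-allele share was 84.6% for Amh on 13 reads and 71.4% for Sox9 on 28 (exact binomial p = 0.023 and 0.0373, adjusted 0.189 and 0.259). Their H3K27me3 shares at E12.5 were 45.5% and 51.2%.

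Across autosomal genes with 1 promoter window, the ratio to IgG at E12.5 was lowest where the window held most CG dinucleotides. The median was -0.92 over 4424 genes with 15 or more, -0.57 over 3206 with 5 to 14, and 0.35 over 2968 with 0 to 4. Emx2 and Foxl2, with 24 and 22, were 8.80-fold and 3.26-fold over IgG. By gene length, 27.9% of 4132 autosomal genes of up to 10083 bases and 7.89% of 4132 genes of 56668 bases or more were at 2-fold or more at E12.5. Gata4, with 72771 bases, belongs to the long genes.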
